A study of Mus musculus with 12 samples.

Results

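The BCL-2 family was followed as 10 genes in cultured type II alveolar epithelial (AT2) cells of the mouse lung. The 10 genes were the listed symbols Bcl2, Bcl2l1, Mcl1, Bcl2l11, Bmf, Bbc3, Pmaip1, Bid, Bax and Bak1, taken by name from the 55450 genes of the count table. All 10 had a row and all 10 passed the filter on low counts that left 20612 genes for testing. Cells came from AhRf/f mice, in which both copies of the aryl hydrocarbon receptor gene are floxed, and from Sftpc-Cre;AhRf/f mice, in which the Sftpc promoter also drives Cre recombinase (the labels write AhRfl/fl). Both lines were on a C57BL/6 background and were used at 6 to 8 weeks of age. Cells were enriched from dispase-digested lung by removal of cells that bound antibodies to CD16/32, CD45, Ter119 or Sca-1, and were plated on collagen I. For 24 h they then received PBS or 50 µg/ml of cockroach extract (CRE). The 4 groups (AhRf/f with PBS, AhRf/f with CRE, Sftpc-Cre;AhRf/f with PBS, Sftpc-Cre;AhRf/f with CRE) had 3 libraries each, and the labels do not say whether these were separate mice or cultures, so a p-value measures the spread between these libraries only. Cre is made in cells that use the Sftpc promoter, and the paper cautions that Sftpc may be expressed outside AT2 cells too. Which cells of the culture kept the receptor was not measured here.

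Proteins of the BCL-2 family decide whether the outer mitochondrial membrane is opened during apoptosis. BCL-2, BCL-XL (from Bcl2l1) and MCL-1 hold back cell death, BAX and BAK (from Bak1) form the pores that release cytochrome c, and the BH3-only proteins BIM (from Bcl2l11), BMF, PUMA (from Bbc3), NOXA (from Pmaip1) and BID start the process by binding the others through a short helix, the BH3 domain. Some members also touch autophagy, since BCL-2 and BCL-XL bind Beclin 1, itself a protein with a BH3 domain. In the lung epithelium, loss of alveolar cells by apoptosis is known from acute injury and fibrosis.

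The stretch that codes for the BH3 helix is found in the BH3-only genes and in other members of the family. It is shown for the genes of BIM and BMF, beside those of Bbc3, Bid and Bax. BIM and BMF come first because their genes were singled out from the genotype comparison with CRE. Each line gives 45 coding bases, 5′ to 3′, read from a GENCODE M21 transcript on GRCm38, with capitals on the codon of the leucine that all BH3 domains share and on the codons of the glycine or alanine and the aspartate that follow it after 3 other residues.
Bcl2l11 (exon 3 of 4, plus strand, chr2:128147135-128147179): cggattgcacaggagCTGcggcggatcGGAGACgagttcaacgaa
Bmf (exon 4 of 5, minus strand, chr2:118545097-118545141): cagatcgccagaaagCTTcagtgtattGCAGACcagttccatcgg
Bbc3 (exon 3 of 4, plus strand, chr7:16313758-16313802): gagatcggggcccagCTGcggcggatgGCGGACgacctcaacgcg
Bid (exon 4 of 6, minus strand, chr6:120897286-120897330): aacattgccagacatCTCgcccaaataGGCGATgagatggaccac
Bax (exon 3 of 6, minus strand, chr7:45465994-45466038): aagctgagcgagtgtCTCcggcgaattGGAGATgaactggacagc

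Position by position, the Bcl2l11 stretch shared 29 of its 45 bases with Bbc3, 26 with Bmf, 23 with Bax and 22 with Bid. The Bmf stretch shared 25 bases with Bbc3 and 15 with the corresponding stretch of Bcl2l1. Bcl2l11 has a glycine codon between the leucine and the aspartate, whereas Bmf and Bbc3 have an alanine codon. These windows are short, and the gene counts rest on whole transcripts, so sharing of reads between members through them was not examined.

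Total counts per library lay between 68878065 and 80935797. The AT2 markers ranged widely, from surfactant protein C (Sftpc) at 3086 to 6492 CPM (counts scaled to the library size, with TMM factors) to Slc34a2 at 9.16 to 21.4 CPM. The club cell marker Scgb1a1 was at 3959 to 8069 CPM. The other club markers were far lower, Cyp2f2 at 10.4 to 19.2 CPM and Scgb3a2 at 2.10 to 3.59 CPM. Summed over their lists, club markers were at 3976 to 8089 CPM, nearly all of it Scgb1a1, and AT2 markers at 4497 to 9108 CPM. No marker of the AT1 or leukocyte lists was at 0 in every library of a group. Ahr itself was at 42.9 to 56.2 CPM in AhRf/f and at 37.7 to 51.5 CPM in Sftpc-Cre;AhRf/f libraries, which overlap. A gene count sums all exons, so the loss of a floxed part need not lower it and Ahr counts do not check the labels. Cyp1b1, a classic target gene of the receptor, was at 344 to 465 CPM in the 6 AhRf/f libraries and at 31.7 to 63.9 CPM in the 6 Sftpc-Cre;AhRf/f libraries. Libraries of the same number within a genotype resembled each other in makeup: the summed lymphocyte markers were 201 CPM with PBS and 169 CPM with CRE in the first AhRf/f libraries, against 10.7 to 34.8 CPM in the other 4. In Sftpc-Cre;AhRf/f cells the first libraries had 146 and 144 CPM, and the other 4 had 33.1 to 53.2 CPM. In bulk RNA, fewer cells of a type and less RNA per cell cannot be told apart.

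Levels of different members were compared as the deposited FPKM, which divides by transcript length. Over the 12 libraries the pore protein gene Bax had the highest median, 115 FPKM, and Mcl1 followed at 90.6 FPKM. Bax was above Mcl1 in 11 of the 12 libraries. Bak1 had a median of 31.2 FPKM and Bcl2l1 one of 10.5 FPKM, and each was above the next gene of the order in all 12 libraries. Bbc3 (5.12), Bcl2l11 (5.01), Pmaip1 (4.82) and Bid (4.55) formed a group whose median FPKM lay close together and whose order changed between libraries, with Bbc3 above Bcl2l11 in 6 of 12, Bcl2l11 above Pmaip1 in 5 and Pmaip1 above Bid in 7. Bmf was lower, at a median of 2.87 FPKM, and was below Bid in 10 of 12 libraries. Bcl2 was the lowest in all 12 libraries, with a median of 0.679 FPKM.

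**Figure D1:**
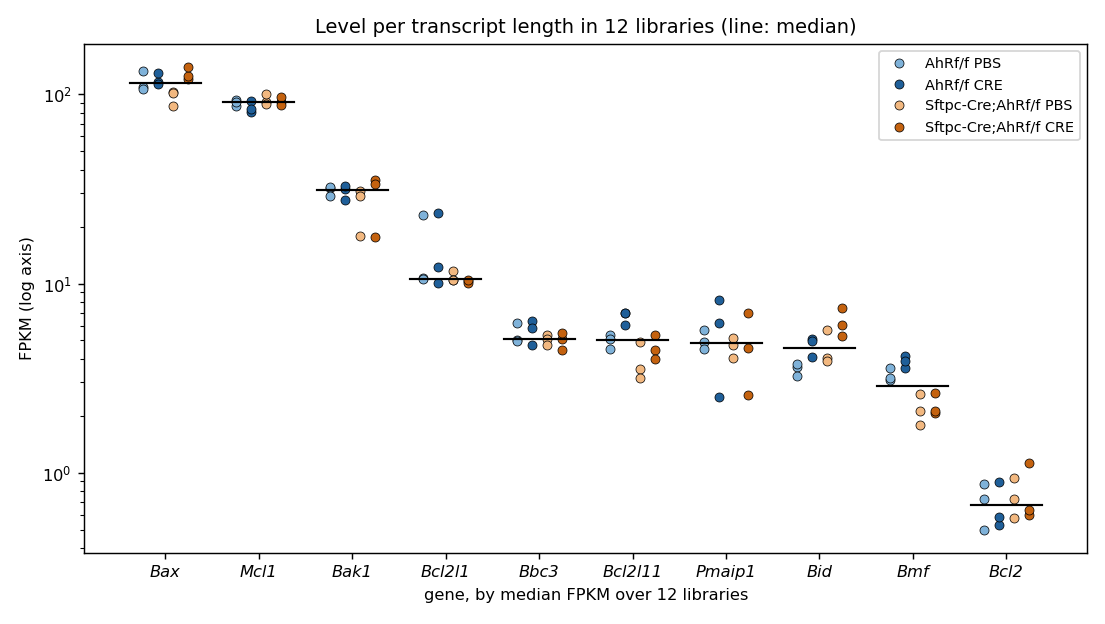
FPKM of the 10 genes (log axis) in the 12 libraries, 1 point per library coloured by group, with a line at the median, ordered by median. Bax and Mcl1 lie highest at medians of 115 and 90.6 FPKM, the 4 genes from Bbc3 to Bid overlap, with medians between 4.55 and 5.12 FPKM, and Bcl2 lies lowest.

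The comparison of genotypes sets cells in which the receptor is targeted against floxed cells, without and with the allergen. AhRf/f mice carry no Cre, so the parts of Cre, mouse line and receptor cannot be told apart. Bmf was the member with the clearest difference: it was lower in all 6 Sftpc-Cre;AhRf/f libraries than in any of the 6 AhRf/f libraries. Bcl2l11 was also lower in Sftpc-Cre;AhRf/f cells, without overlap only under CRE. Bid lay the other way, higher in Sftpc-Cre;AhRf/f cells under both treatments. Bax was lower in Sftpc-Cre;AhRf/f cells with PBS, without overlap, and not with CRE. Mcl1 and Bbc3 differed little, and the values of Bcl2l1 and Bak1 turned on single libraries. Bcl2l11 and Bmf had been singled out from the genotype comparison with CRE in these libraries, so their values in that comparison, and in averages that include it, are not independent evidence of a direction. The comparison with PBS was not part of that choice, although its libraries share a makeup with the CRE libraries of the same number.

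BMF is a BH3-only protein that is held at the actin and myosin motor complexes and is released on detachment and other stress. Its gene spans chr2:118528757-118549687 on the minus strand of GRCm38. Bmf mRNA was at 17.9, 21.4 and 18.8 CPM in AhRf/f cells with PBS and at 20.6, 24.6 and 23.3 CPM in AhRf/f cells with CRE. In Sftpc-Cre;AhRf/f cells it was at 14.8, 12.3 and 10.6 CPM with PBS and at 15.0, 12.2 and 12.8 CPM with CRE. The lowest AhRf/f library, at 17.9 CPM, stood above the highest Sftpc-Cre;AhRf/f library, at 15.0 CPM. With PBS the log2 fold change of Sftpc-Cre;AhRf/f over AhRf/f was -0.62 (SE 0.14, edgeR quasi-likelihood adjusted p = 0.205), and with CRE it was -0.78 (SE 0.15, edgeR adjusted p = 0.122), so neither passed 0.05 after adjustment over all 20612 genes.

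Averaged over both treatments, the log2 fold change of Bmf was -0.70 (SE 0.10, edgeR adjusted p = 0.0123), a level 0.616 times that of AhRf/f cells with a 95% interval of 0.526 to 0.721. Bmf was the only one of the 10 members called in this comparison, in which 0.631% of all genes tested were called. It was also the only member of which all 6 libraries of 1 genotype lay on 1 side of the other 6, which held for 1.19% of all genes tested. The averaged test counts 12 libraries, although PBS and CRE libraries of the same number deviate together. With the counts of the same-number libraries summed, which leaves 3 values a genotype, the log2 fold change was -0.70 (SE 0.13) with an unadjusted p of 0.00144 in edgeR and an adjusted p of 0.334, and Bmf was then not called. It was also not called without the first AhRf/f PBS and the second AhRf/f CRE library (adjusted p = 0.0731 in edgeR).

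BIM, the product of Bcl2l11, is a strong BH3-only protein that binds all anti-apoptotic members. Its gene spans chr2:128126038-128162547 on the plus strand. Bcl2l11 mRNA was at 46.9, 41.4 and 46.3 CPM in AhRf/f cells with PBS and at 61.5, 63.6 and 55.5 CPM with CRE. In Sftpc-Cre;AhRf/f cells it was at 30.8, 27.9 and 44.2 CPM with PBS and at 38.6, 36.0 and 49.3 CPM with CRE. The third Sftpc-Cre;AhRf/f library was the highest of its genotype under both treatments, and with PBS it lay within the AhRf/f range. The log2 fold change between genotypes was -0.39 with PBS (SE 0.17, edgeR adjusted p = 0.570) and -0.54 with CRE (SE 0.17, edgeR adjusted p = 0.617). Averaged over treatments it was -0.47 (SE 0.12) with an edgeR adjusted p of 0.161, of 0.816 with same-number libraries summed, and of 0.0183 in DESeq2. Leaving out the third Sftpc-Cre;AhRf/f PBS library moved the averaged value to -0.58 with an adjusted p of 0.0296 in edgeR.

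BID links death receptors to mitochondria after it is cut by caspase-8. Bid mRNA was at 14.0, 13.2 and 15.1 CPM in AhRf/f cells with PBS and at 21.7, 15.8 and 15.5 CPM in Sftpc-Cre;AhRf/f cells with PBS. With CRE it was at 19.8, 16.5 and 20.2 CPM in AhRf/f cells and at 28.6, 24.0 and 21.5 CPM in Sftpc-Cre;AhRf/f cells. Under each treatment the Sftpc-Cre;AhRf/f libraries all lay above the AhRf/f libraries, by a narrow margin with PBS. The log2 fold change between genotypes was 0.32 with PBS (SE 0.16, edgeR adjusted p = 0.628) and 0.39 with CRE (SE 0.16, edgeR adjusted p = 0.798), and neither was called. Bid overlaps Bcl2l13 on the opposite strand over 913 bases, and whether the counting used strand is not given in the sources used here. Bcl2l13 was at 5515 to 6566 counts against 885 to 2254 for Bid, with a log2 fold change between genotypes of -0.04 averaged over treatments.

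The 2 pore genes had no call between genotypes. Bax was at 188, 237 and 190.3 CPM in AhRf/f cells with PBS and at 175, 149 and 179 CPM in Sftpc-Cre;AhRf/f cells with PBS, where the groups did not overlap (log2 fold change -0.29, SE 0.12, edgeR adjusted p = 0.536). With CRE it was at 200.4, 203 and 233 CPM in AhRf/f cells and at 206, 219 and 252 CPM in Sftpc-Cre;AhRf/f cells, with a log2 fold change of 0.09 (SE 0.12). Bak1 was at 45.9 CPM in the first Sftpc-Cre;AhRf/f PBS library and at 47.2 CPM in the second Sftpc-Cre;AhRf/f CRE library, and at 72.6 to 92.4 CPM in the other 10. Bak1 overlaps Ggnbp1 on the opposite strand over 9200 bases, a gene with 24 to 357 counts against 3458 to 7245 for Bak1. Without those libraries the averaged genotype value of Bak1 went from -0.19 to 0.044 on the log2 scale.

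Among the anti-apoptotic genes, Mcl1 varied least of the 10 members, with a coefficient of variation of 6.1% over the 12 libraries. MCL-1 is a short-lived protein on which many epithelial cells depend. Mcl1 was at 349, 337 and 353 CPM in AhRf/f cells with PBS, at 343, 313 and 326 CPM in AhRf/f cells with CRE, at 334, 333 and 384 CPM in Sftpc-Cre;AhRf/f cells with PBS and at 335, 334 and 381 CPM in Sftpc-Cre;AhRf/f cells with CRE. The averaged log2 fold change between genotypes was 0.06, with a 95% interval of -0.06 to 0.18.

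Bcl2l1 stood high in 2 libraries. It was at 116 CPM in the first AhRf/f PBS library and at 123 CPM in the second AhRf/f CRE library, and at 51.3 to 61.4 CPM in the other 10. These libraries have different numbers, whereas for lymphocyte markers the libraries of the same number were alike. The averaged genotype value of Bcl2l1 was -0.53 on the log2 scale (SE 0.24) with an edgeR adjusted p of 0.497. Without both libraries it was -0.07.

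Bcl2 was low, at 8.78, 5.22 and 7.52 CPM in AhRf/f cells with PBS and at 8.91, 5.47 and 6.08 CPM with CRE. In Sftpc-Cre;AhRf/f cells it was at 9.21, 7.27 and 5.89 CPM with PBS and at 11.2, 6.16 and 6.70 CPM with CRE. In all 4 groups the first library was the highest, and in all 4 it also held the most lymphocyte marker mRNA, 144 to 201 CPM against 10.7 to 53.2 CPM in the other libraries. BCL-2 is abundant in lymphocytes. The part of lymphocyte RNA in the Bcl2 values was not tested.

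The p53 target genes Bbc3 and Pmaip1 showed no difference between genotypes that exceeded the spread. Bbc3 was at 11.8, 14.9 and 11.9 CPM in AhRf/f cells with PBS, at 14.8, 11.4 and 14.2 CPM in AhRf/f cells with CRE, at 12.2, 11.9 and 11.3 CPM in Sftpc-Cre;AhRf/f cells with PBS and at 10.3, 12.2 and 13.4 CPM in Sftpc-Cre;AhRf/f cells with CRE. Its averaged log2 fold change was -0.15, with a 95% interval of -0.38 to 0.09. Pmaip1 varied most among libraries with CRE, where it was at 7.52, 19.2 and 25.3 CPM in AhRf/f cells and at 7.66, 13.9 and 22.0 CPM in Sftpc-Cre;AhRf/f cells, in the same order of numbers in both. With PBS it was at 14.8, 14.0 and 17.5 CPM in AhRf/f cells and at 13.9, 12.1 and 15.8 CPM in Sftpc-Cre;AhRf/f cells.

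**Figure D2:**
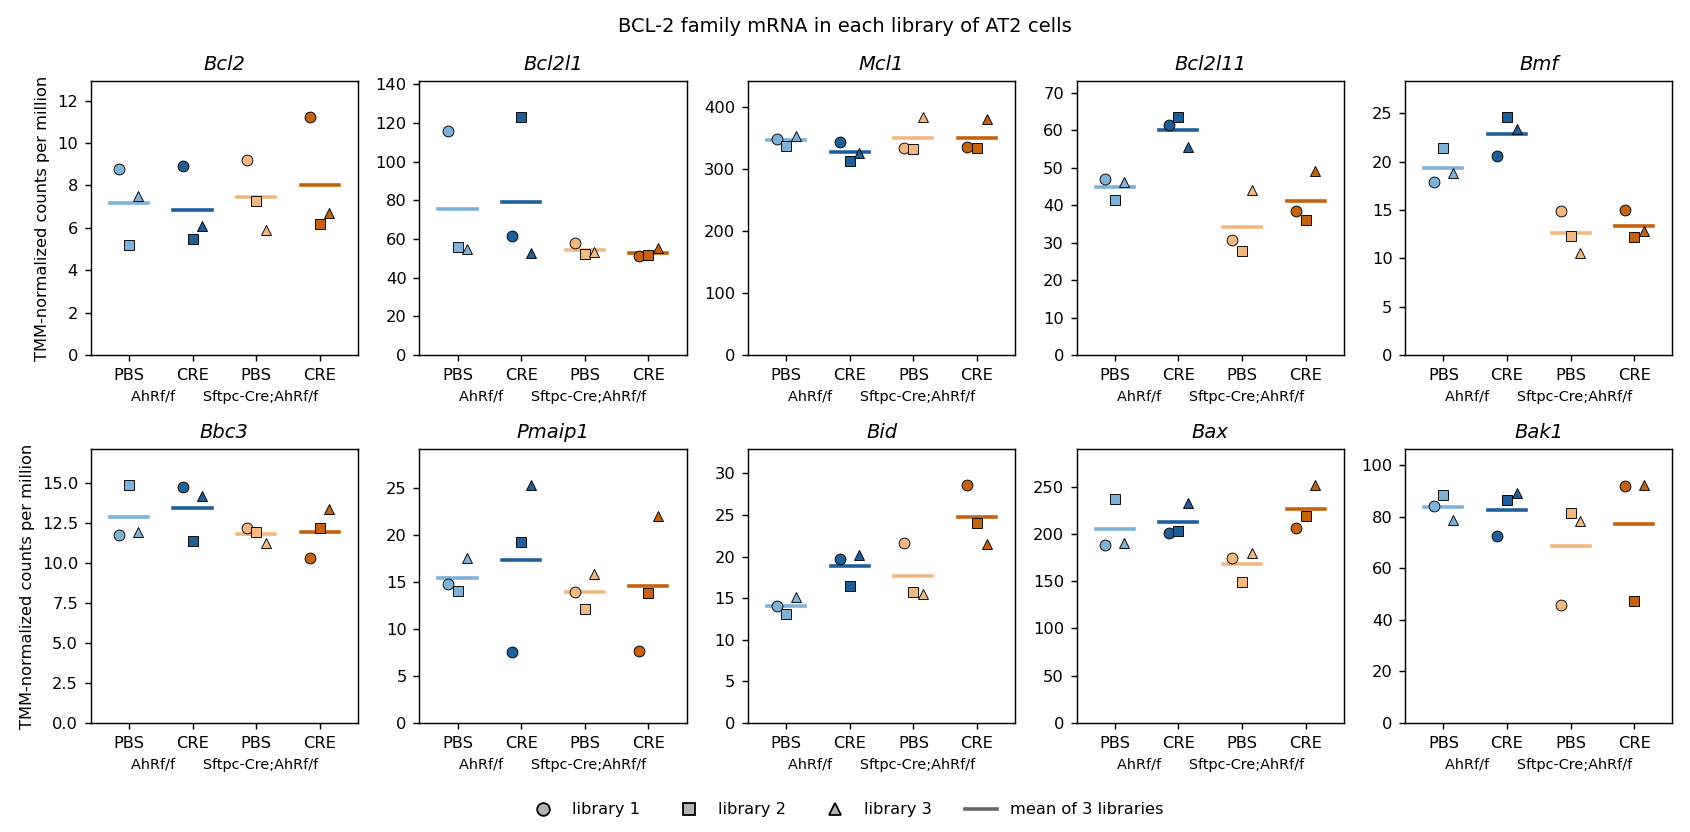
TMM-normalized CPM of the 10 genes in each library (circle, square and triangle for libraries 1, 2 and 3) by genotype and treatment, with a line at the mean of 3 and each axis starting at 0. All 6 AhRf/f points of Bmf lie above the 6 Sftpc-Cre;AhRf/f points, and single libraries stand apart for Bcl2l1 at 116 and 123 CPM and for Bak1 at 45.9 and 47.2 CPM.

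Counted over the 10 members, edgeR called 0 between genotypes with PBS and 0 with CRE, where 0.15% and 0.17% of all genes tested were called. At an unadjusted p below 0.05, edgeR had 3 members in each of these comparisons, against 1725 and 1227 of the 20612 genes tested. DESeq2 called 1 member, Bmf, in both (adjusted p = 0.00775 with PBS and 2.12e-04 with CRE), against 243 and 174 of all genes tested. The rule of the study, an unadjusted limma-trend p below 0.05 with an absolute log2 fold change above 0.5, was passed by Bmf with PBS and by Bmf and Bcl2l11 with CRE, and by 4.1% and 3.42% of all genes tested. Bmf and Bcl2l11 had been singled out from the comparison with CRE, so their counts there are not independent evidence. Groups did not overlap for 3 members with PBS (Bmf, Bid and Bax) and for 3 with CRE (Bcl2l11, Bmf and Bid), as for 14% and 11% of all genes tested. The median log2 fold change of the 10 members was -0.22 with PBS and -0.13 with CRE, and those of all genes tested were -0.0010 and -0.0034.

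CRE against PBS addresses the response to the allergen within a genotype. Bid was higher with CRE in each of the 3 same-number pairs of both genotypes. Bcl2l11 was higher with CRE in all 6 pairs as well. Bax was higher in all 3 pairs of Sftpc-Cre;AhRf/f cells, and in AhRf/f cells Bmf was higher in all 3 pairs, by 0.20 to 0.31 on the log2 scale, and Mcl1 lower in all 3, with differences of -0.024 to -0.11. The share of all genes tested that had the same sign in all 3 pairs was not computed, so these counts have no background. In the fit without pairing none of the 10 members was called in either genotype, and in the fit with the replicate number as a block within each genotype Bid rose in both and Bcl2l11 in AhRf/f cells. That fit called 3.63% of all genes tested in AhRf/f, 2.13% in Sftpc-Cre;AhRf/f and 6.59% averaged over genotypes, so the 10 members had 2, 1 and 2 calls against these shares.

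The mean of Bid in AhRf/f cells was 14.1 ± 0.968 CPM under PBS and 18.8 ± 2.01 CPM under CRE (SD, n = 3 each), and the log2 fold change was 0.42 (SE 0.16, edgeR adjusted p = 0.429). In Sftpc-Cre;AhRf/f cells the means were 17.6 ± 3.49 and 24.7 ± 3.61 CPM (SD, n = 3 each), and the log2 fold change was 0.49 (SE 0.16, edgeR adjusted p = 0.516). With the replicate block the edgeR adjusted p was 0.0371 in AhRf/f and 0.0257 in Sftpc-Cre;AhRf/f cells. Averaged over genotypes the log2 fold change was 0.45 (SE 0.11, edgeR adjusted p = 0.101), and with the replicate block within genotype the edgeR adjusted p was 0.00434.

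Bcl2l11 in AhRf/f cells went from 44.9 ± 3.02 to 60.2 ± 4.23 CPM with CRE (SD, n = 3 each), and the 3 CRE libraries all lay above the 3 PBS libraries. The log2 fold change was 0.42 (SE 0.17) with an edgeR adjusted p of 0.459, and of 0.0431 with the replicate block. In Sftpc-Cre;AhRf/f cells the groups overlapped, at 34.3 ± 8.70 and 41.3 ± 7.02 CPM (SD, n = 3 each). The log2 fold change there was 0.27 (SE 0.17) at an edgeR adjusted p of 0.904, or 0.170 with the replicate block. The 2 responses differed by -0.16 on the log2 scale (SE 0.24), with an edgeR adjusted p of 1 for the interaction and a 95% interval of -0.68 to 0.37. Averaged over genotypes Bcl2l11 rose by 0.35 on the log2 scale with the replicate block within genotype (SE 0.06, edgeR adjusted p = 0.0158), and it was not called without it (edgeR adjusted p = 0.281).

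Bax in Sftpc-Cre;AhRf/f cells was at 168 ± 16.3 CPM under PBS and 226 ± 23.5 CPM under CRE (SD, n = 3 each), without overlap. The log2 fold change was 0.43 (SE 0.12, edgeR adjusted p = 0.331), and with the replicate block the edgeR adjusted p was 0.102. In AhRf/f cells it was 205 ± 27.8 with PBS and 212 ± 18.1 CPM with CRE, with a log2 fold change of 0.05 (SE 0.12). The difference between these responses was 0.38 on the log2 scale (SE 0.17), with an unadjusted edgeR p of 0.0418 and an adjusted p of 1.

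Bmf was not called with CRE in either genotype, with or without the block. Its log2 fold change was 0.24 in AhRf/f cells (SE 0.14, 95% interval -0.08 to 0.56) and 0.09 in Sftpc-Cre;AhRf/f cells (SE 0.14, 95% interval -0.23 to 0.41), so an increase of up to 1.47-fold in AhRf/f cells lies within the interval. Mcl1 had a log2 fold change of -0.08 in AhRf/f cells, with an interval of -0.25 to 0.09, and one of -0.0015 in Sftpc-Cre;AhRf/f cells, with an interval of -0.17 to 0.17. Pmaip1 was lower with CRE in the first pair of each genotype, with differences of -0.97 and -0.86 on the log2 scale, and was higher in the other 2 pairs of each, by 0.19 to 0.53. Bcl2l1 and Bak1 had intervals of -0.67 to 0.80 and -0.59 to 0.55 in AhRf/f cells, wide enough to hold a change of 1.46-fold in either direction.

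Without pairing, edgeR called 0 of the 10 members for CRE in AhRf/f cells and 0 in Sftpc-Cre;AhRf/f cells, where 0.233% and 0.262% of all genes tested were called. At an unadjusted p below 0.05 edgeR had 2 members in each, against 1929 and 1336 of the 20612 genes tested. DESeq2 called 0 members, against 409 and 254 of all genes tested. The study's rule was passed by 0 members in either, against 4.11% and 3.38% of all genes tested. Groups did not overlap for Bcl2l11 and Bid in AhRf/f cells and for Bax in Sftpc-Cre;AhRf/f cells, as for 16.5% and 11.8% of all genes tested. Averaged over genotypes 0 members were called by edgeR against 1.1% of all genes tested. At an unadjusted p below 0.05 there were 3 members, against 2287 of all genes. DESeq2 called 1 member, Bid (adjusted p = 0.00628), against 740 of all genes. The interaction of genotype and CRE was called for 0 members and for 0% of all genes tested. At an unadjusted p below 0.05 there was 1 member, Bax, against 763 of all genes.

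**Figure D3:**
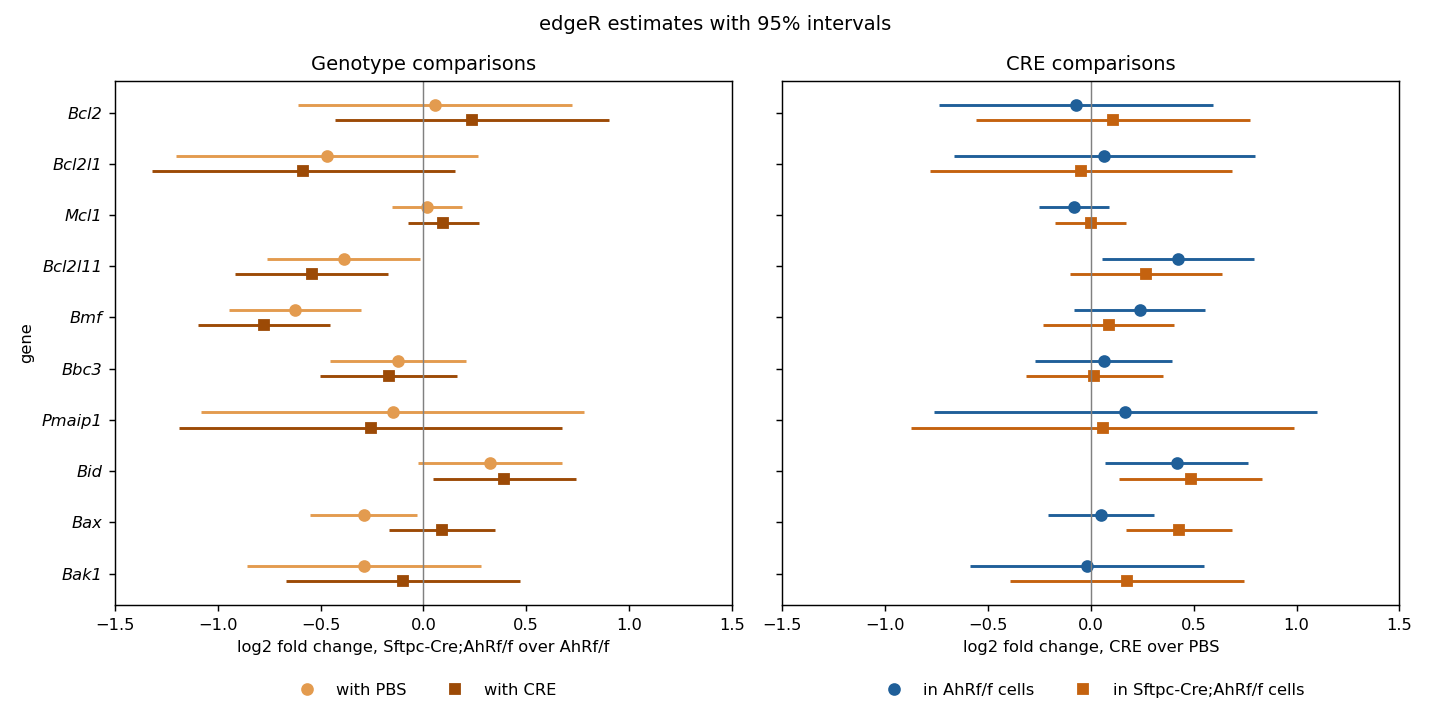
Log2 fold changes of the 10 genes from edgeR with 95% intervals, between genotypes with PBS and with CRE (left) and for CRE over PBS in each genotype (right). On the left the intervals of Bmf (-0.62 and -0.78) and Bcl2l11 lie below 0 under both treatments, that of Bax below 0 with PBS and that of Bid above 0 with CRE, and on the right those of Bid lie above 0 in both genotypes, that of Bcl2l11 in AhRf/f and that of Bax in Sftpc-Cre;AhRf/f cells.

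The genes around the family were read from lists written from general knowledge, with earlier results of these data known. Of the other 16 family genes 15 were tested, since Bcl2l10 had at most 13 counts in a library, and edgeR called 0 of them in all 7 comparisons. With the replicate block, Bcl2a1b and Bcl2a1d rose with CRE averaged over genotypes, by 0.44 (edgeR adjusted p = 0.0327) and 0.71 (edgeR adjusted p = 0.0172) on the log2 scale. They belong to the anti-apoptotic A1 genes, which are near-identical copies, so the split of counts between them is uncertain. Bcl2l15 passed the study's rule between genotypes with PBS, with a log2 fold change of 1.04 (SE 0.42, edgeR adjusted p = 0.536), and was at 0.276 to 2.01 FPKM over the 12 libraries. The median log2 fold change of the 15 was 0.07 between genotypes averaged over treatments and -0.07 for CRE averaged over genotypes, where the medians of all genes tested were -0.0059 and -0.0021.

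Of 17 genes for the apoptosome, the caspases and their inhibitors, 1 rose and 0 fell with CRE averaged over genotypes. This comparison called 1.1% of all genes tested. The gene that rose was Birc3, which encodes the inhibitor cIAP2 and is a target of NF-κB. Birc3 went from 25.4 ± 2.97 to 40.9 ± 2.95 CPM in AhRf/f cells and from 25.5 ± 3.81 to 42.0 ± 5.92 CPM in Sftpc-Cre;AhRf/f cells (SD, n = 3 each), with an averaged log2 fold change of 0.70 (SE 0.10, edgeR adjusted p = 0.00637). With the replicate block Apaf1, the scaffold of the apoptosome, rose too, by 0.41 on the log2 scale (SE 0.08, edgeR adjusted p = 0.0283). Between genotypes edgeR called 0 of the 17, and Birc5, which encodes survivin, passed the study's rule with CRE at a log2 fold change of 0.55 (SE 0.26, edgeR adjusted p = 0.848).

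Of 10 genes for the death receptor pathway, 2 rose and 0 fell with CRE averaged over genotypes, where 1.1% of all genes tested were called. Both genes that rose encode receptors. Fas went from 6.58 ± 2.14 to 12.0 ± 1.48 CPM in AhRf/f cells and from 6.95 ± 0.346 to 11.4 ± 2.32 CPM in Sftpc-Cre;AhRf/f cells (SD, n = 3 each), with an averaged log2 fold change of 0.79 (SE 0.16, edgeR adjusted p = 0.0489). Tnfrsf10b, which encodes the mouse receptor of TRAIL, had an averaged log2 fold change of 0.40 (SE 0.07, edgeR adjusted p = 0.0174). The blocked fit, which called 6.59% of all genes tested, called 4 of the 10 higher. The other 2 were the necroptosis genes Ripk1 and Mlkl, at 0.35 and 0.34 on the log2 scale. Between genotypes 0 of the 10 were called, and Ripk3, a kinase of necroptosis, passed the study's rule with PBS at a log2 fold change of -0.63 (SE 0.18, edgeR adjusted p = 0.339).

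Of 14 genes for p53 and its targets, 0 were called with CRE averaged over genotypes, although 12 of the 14 had a positive log2 fold change with a median of 0.20. In the blocked fit, which called 6.59% of all genes tested, 7 of the 14 rose and 0 fell: Perp, Trp53inp1, Mdm2, Ccng1, Sesn2, Cdkn1a and Zmat3, with log2 fold changes of 0.19 to 0.55. Perp, a p53 target of epithelial junctions, had the largest of these, 0.55 (SE 0.04, edgeR adjusted p = 8.25e-04 with the block). Mdm2, the ligase that limits p53, rose by 0.37 (SE 0.04, edgeR adjusted p = 0.00188 with the block). The genes Cdkn1a, Mdm2, Ccng1, Sesn2, Zmat3, Trp53inp1 and Apaf1, and those named above for the block alone, were singled out after their values were seen. Bbc3 and Pmaip1, which are p53 targets too, were not called in the blocked fit averaged over genotypes. The list does not hold every p53 target. In that fit Bid, Fas, Tnfrsf10b and Apaf1 of the other lists rose, by 0.45, 0.81, 0.40 and 0.41 on the log2 scale. Bax was not called in it. Between genotypes all 14 had a negative log2 fold change with PBS, with a median of -0.13, and 0 were called. With CRE 10 were lower and 4 higher, and 0 were called. Averaged over treatments 11 were lower and 3 higher, and 1 of the 14 was called, where 0.631% of all genes tested were called. This was Btg2, a growth arrest gene, which was lower by 0.31 on the log2 scale in Sftpc-Cre;AhRf/f cells (SE 0.05, edgeR adjusted p = 0.0276). Btg2 was not called with same-number libraries summed (adjusted p = 0.547 in edgeR).

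Of 15 regulators and partners of the BH3-only proteins and MCL-1, which include Foxo3, Ddit3, the dynein light chains and the ubiquitin ligase and deubiquitinase genes Huwe1 and Usp9x, edgeR called 0 in all 7 comparisons. In the blocked fit, which called 6.59% of all genes tested, 1 rose and 1 fell with CRE averaged over genotypes. Foxo3, a transcription factor known to act on Bcl2l11, had a log2 fold change of 0.17 (edgeR adjusted p = 0.0271). Ddit3, which encodes the stress factor CHOP, had one of -0.32 (edgeR adjusted p = 0.0481). E2f1 and Uvrag passed the study's rule between genotypes with CRE, at log2 fold changes of 0.59 (SE 0.25, edgeR adjusted p = 0.826) and -1.13 (SE 0.47, edgeR adjusted p = 0.810). E2F1 is a cell cycle factor and UVRAG a partner of Beclin 1 in autophagy.

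**Figure D4:**
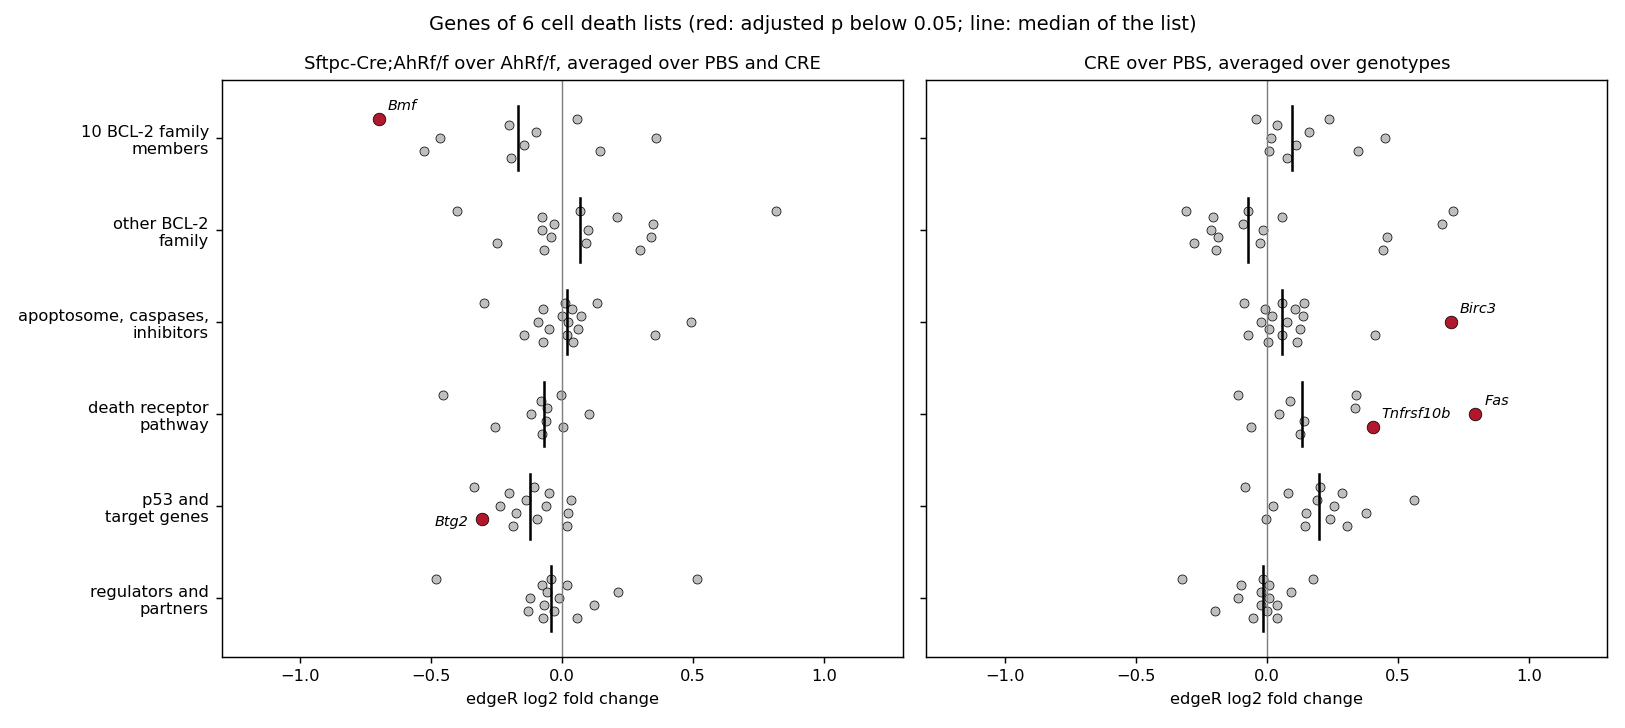
Log2 fold change of each tested gene of the 6 lists, between genotypes averaged over treatments (left) and for CRE averaged over genotypes (right), with a line at each list's median and red points for genes that edgeR called without the replicate block. The called genes are Bmf at -0.70 and Btg2 at -0.31 on the left, and Birc3 at 0.70, Fas at 0.79 and Tnfrsf10b at 0.40 on the right.

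Markers of other cell types also differed between groups. The summed neutrophil markers (7 genes) were at 7.81 to 52.96 CPM in AhRf/f and at 3.50 to 18.8 CPM in Sftpc-Cre;AhRf/f libraries, and averaged over treatments all 7 had a negative log2 fold change with a median of -1.27, although edgeR called 0 of the 7 between genotypes. The summed ciliated cell markers (4 genes) were at 65.7 to 95.3 CPM in AhRf/f and at 90.8 to 171 CPM in Sftpc-Cre;AhRf/f libraries, and averaged over treatments all 4 had a positive log2 fold change with a median of 0.61, with 0 of the 4 called. With CRE, 3 of the 7 AT1 markers fell averaged over genotypes, and 5 of 7 with the replicate block. Of all genes tested, 1.1% were called without the block and 6.59% with it. The summed AT1 markers were at 1646 to 2370 CPM with PBS and at 1096 to 1639 CPM with CRE. Of the 10 AT2 markers 1 fell with CRE averaged over genotypes, with the block 4 fell and 2 rose, and between genotypes 0 were called, with 8 of 10 lower in Sftpc-Cre;AhRf/f cells under each treatment. The summed AT2 markers were at 6699 to 8610 CPM in AhRf/f libraries. They were at 4497, 6313 and 8734 CPM with PBS and at 4683, 6397 and 9108 CPM with CRE in Sftpc-Cre;AhRf/f libraries, so the third library, in which Bcl2l11 was highest, was also the highest in AT2 markers. In the blocked fit averaged over genotypes, CRE also moved 3 of 7 macrophage markers (Adgre1 higher at 1.92 and Mrc1 lower at -0.84 on the log2 scale, and Siglecf lower, a gene with 0 to 251 counts). The same fit had 3 of 6 fibroblast markers lower, all collagen genes, and 1 each of the club (Scgb1a1 at -0.25), lymphocyte (Cd79a at -0.28) and pan-leukocyte (Laptm5 at -0.29) markers lower. The part of these shifts in the values of Bmf, Bcl2l11 and Bid was not tested.

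The genes whose pattern over the 12 libraries was most like that of Bcl2l11 were Sema3c, Tlr4, Tcp11l2, St3gal6 and Sytl2, with root mean square differences of centred log2 CPM of 0.138 to 0.167 among 14543 genes of at least 1 CPM, where the SD of Bcl2l11 itself was 0.368. For Bmf they were Dynlt1c, Arhgap40, Cpox, Artn and Hspa4l, with differences of 0.174 to 0.192 and an SD of Bmf of 0.408. Dynlt1c has near-identical copies, so its count is uncertain. Bmf and Bcl2l11 were not close neighbours in this measure: they differed by 0.315, which put Bmf at place 1416 in the order of Bcl2l11 and Bcl2l11 at place 259 in that of Bmf.

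The 5′ ends of Bcl2l11 and Bmf are shown because both genes were lower where the receptor is targeted, and the receptor binds a short element whose core is GCGTG. Of the 10 members 9 had a promoter in the RefSeq table on GRCm38.p6, from 250 bases before to 50 after a start. The lines give the 250 bases before the start, 5′ to 3′ on the strand of the gene, with capitals on each GCGTG of either strand (CACGC where it lies on the other).
Bcl2l11 (plus strand, chr2:128125788-128126037): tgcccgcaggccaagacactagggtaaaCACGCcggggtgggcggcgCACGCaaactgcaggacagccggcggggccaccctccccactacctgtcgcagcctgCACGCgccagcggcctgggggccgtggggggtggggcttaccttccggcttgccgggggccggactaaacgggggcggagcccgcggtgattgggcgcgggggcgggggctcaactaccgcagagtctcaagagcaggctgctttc
Bmf (minus strand, chr2:118549687-118549936): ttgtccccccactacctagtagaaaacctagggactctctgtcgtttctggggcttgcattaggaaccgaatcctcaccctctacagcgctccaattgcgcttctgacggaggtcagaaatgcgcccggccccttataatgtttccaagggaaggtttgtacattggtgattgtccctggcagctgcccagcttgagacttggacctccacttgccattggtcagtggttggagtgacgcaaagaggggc

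The Bcl2l11 window held the core 3 times, with first bases at -222, -203 and -146 from the start, and its 300 bases were 71% G or C. A second Bcl2l11 start and all 3 Bmf starts in the table had none within their 300 bases. Bbc3 had 4 cores at 1 of its 3 starts and 1 core at each of the other two, and Bcl2l1 had 1 core at each of 2 starts. Among 32851 promoters of that length, 32.4% held at least 1 core, and 35.2% of 27025 genes had a core at 1 start or more. The share of promoters with 3 cores or of like G and C content was not computed. The FOXO motif GTAAACA was found once at Bcl2l11, overlapping the first core, and once at 1 start of Bbc3, and it was in 3.65% of all promoters, and the AP-1 motif TGAGTCA was in no window of these 9 members and in 5.2% of all promoters. A match is a description of letters, and no match concerns only these windows.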

How the data were processed

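RNA of the 12 libraries (4 groups of 3) was sequenced from stranded mRNA preparations. Per the labels and the study's methods, the authors aligned the reads with STAR 2.7.2b to GRCm38, annotated them with Partek software and deposited gene counts, with Salmon named in the processing notes, and FPKM values. A count of 0 is listed as 0.0001 FPKM in the deposited table. Counts were tested as deposited, and FPKM was used to compare levels between genes.

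Genes were kept by filterByExpr (minimum count 10), scaled by TMM and fitted in edgeR 4.0.16 (R 4.3.3) with 4 group means over all 12 libraries. Quasi-likelihood p-values were adjusted by Benjamini-Hochberg over 20612 genes, with calls below 0.05 and 95% intervals. limma 3.58.1 and DESeq2 1.42.0 were run beside it, and the code was tested on simulated data. The counting error of a library is small at 68878065 to 80935797 counts, so the 3 libraries of a group limit the precision.

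The replicate numbers were taken to pair PBS and CRE libraries within a genotype. Deviations of same-number libraries from the group means correlated at 0.729, 0.418 and 0.651 in AhRf/f and at 0.589, 0.542 and 0.325 in Sftpc-Cre;AhRf/f over 14543 genes. No label states this pairing, so the blocked fit rests on a pairing inferred from these same data. The number is taken from the sample titles. Members and lists were chosen with earlier results of these data known. From each list, at most the 3 genes of smallest p among those called or past the study's rule were to be named, and for Bcl2l11 and Bmf the 5 genes of nearest pattern. Sequences came from GENCODE M21 and RefSeq.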

Additional observations from a re-analysis of the deposited data

How the results depend on the processing

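Over the 7 comparisons and every alternative, 1460 values of the 10 members were computed. Of these, 1371 kept their direction and 89 changed sign, 9 of them by more than 1 SE, and none of the 89 was called under the alternative. Under the alternatives 12 values became called and 2 lost their call, both Bmf between genotypes averaged over treatments, given above. Without the first AhRf/f PBS and the second AhRf/f CRE library, Bcl2 for CRE in AhRf/f was 0.23 on the log2 scale. Without the first Sftpc-Cre;AhRf/f PBS and the second Sftpc-Cre;AhRf/f CRE library, Bak1 between genotypes averaged over treatments was 0.044. With 1 library left out at a time, the log2 fold change of Bcl2l1 ranged from -0.41 to 0.51 for CRE in AhRf/f, from -0.23 to 0.23 for CRE averaged over genotypes and from -0.56 to 0.36 for the interaction, with the sign changed without the second AhRf/f CRE library. For CRE in Sftpc-Cre;AhRf/f, Bcl2 ranged from -0.21 (without the first CRE library) to 0.29, and Pmaip1 from -0.37 (without the third CRE library) to 0.36. Between genotypes with CRE, Bcl2 ranged from -0.085 (without the first Sftpc-Cre;AhRf/f library) to 0.48, and Bak1 from -0.25 to 0.17 (without the second Sftpc-Cre;AhRf/f library). The averaged Bmf difference stayed called without any 1 library, at edgeR adjusted p-values of 0.00981 to 0.0467.

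The number of genes called moved more than the members did, and the cause was not tested. In the order CRE in AhRf/f, CRE in Sftpc-Cre;AhRf/f, genotype with PBS, genotype with CRE, interaction, CRE averaged and genotype averaged, edgeR called 48, 54, 31, 35, 0, 226 and 130 genes and DESeq2 called 409, 254, 243, 174, 23, 740 and 522. limma-voom called 1 in the interaction. With only the libraries compared in the fit, edgeR called 13 for CRE in Sftpc-Cre;AhRf/f and 15 for the genotype with PBS. Leaving out 1 library at a time gave 19 to 47, 23 to 62, 15 to 26, 21 to 30, 0 to 2, 125 to 219 and 78 to 110 genes in the same order. Without the first AhRf/f PBS and the second AhRf/f CRE library the counts were 10, 33, 14, 22, 117 (CRE averaged) and 60 (genotype averaged), and without the corresponding Sftpc-Cre;AhRf/f libraries they were 16 for CRE in Sftpc-Cre;AhRf/f, 16 for the genotype with PBS, 2 for the interaction and 65 for the genotype averaged. With same-number libraries summed the genotype averaged had 16 genes. These omissions and sums were chosen after seeing the data. The study's rule with an adjusted p passed 48, 58, 33 and 36 genes in the first 4 comparisons, and without a filter on low counts it passed 1332, 1230, 1310 and 1221.

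With the replicate block within genotype edgeR called 748 genes for CRE in AhRf/f, 439 in Sftpc-Cre;AhRf/f and 1358 averaged, and it changed the call of no member other than Bid and Bcl2l11. With 1 replicate block over both genotypes it called 137, 112, 71 and 55 genes in the first 4 comparisons, 529 for CRE averaged and 223 for the genotype averaged. The genotypes share only the numbers: deviations of same-numbered libraries correlated at 0.420, 0.042 and 0.106 with PBS and at 0.413, -0.029 and 0.087 with CRE.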
